A study of Mus musculus with 7 samples.

Results

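G protein-coupled receptor genes are described here through 76 regions of open chromatin, out of 5898 regions in the 7 deposited tables. Members were chosen by a rule on gene names, which was set with earlier results of these data known. The rule took every region whose assigned gene symbol begins like that of a receptor family (adrenergic, serotonin, dopamine, muscarinic, histamine, purine, lipid, peptide, adhesion and Gpr genes). Regions of Adgrl2 were set aside by the same rule. The 76 regions belong to 49 genes on 19 chromosomes, and all 49 genes matched the RefSeq gene table. Of these, 47 genes with 73 regions encode receptors. The name pattern also caught Ptgfrn, an immunoglobulin-family protein that associates with a prostaglandin receptor, and the pseudogene Gpr137b-ps, which together hold 3 regions.

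ATAC-seq, which uses the transposase Tn5 to cut and tag DNA that is open, was run on nuclei of macrophages sorted from adipose tissue of adult male C57Bl/6J mice. HFD mice (n = 3 libraries) ate a high-fat diet with 60% lipid for 11 weeks. HFD-RD mice (n = 2) lost weight on a regular diet of 10% lipid over 9 weeks that followed 11 weeks of the high-fat one. RD-RD mice (n = 2) ate the regular diet for all 20 weeks. HFD mice were thus studied after 11 weeks and both other groups after 20, so in any comparison with HFD the diet and the time on study cannot be told apart. The labels do not say whether libraries came from separate or pooled animals, so the p-values measure the spread between these libraries, which may be technical.

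G protein-coupled receptors are membrane proteins that pass an outside signal to a G protein inside the cell. Gs raises and Gi lowers the cyclic AMP made by adenylyl cyclase, while Gq activates phospholipase C and releases calcium. In fat, noradrenaline from sympathetic nerves acts through adrenergic receptors to release stored lipid, and macrophages carry receptors for noradrenaline, nucleotides, prostaglandins and lipid mediators that set their movement and inflammatory tone. ATAC-seq reads the openness of DNA and not the amount of receptor made.

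Several limits stand before the values. Titles and diet labels give the groups used here, although each of the 7 libraries has a source name that gives a different diet. The authors deposited only regions that they had selected as differing between these groups, so the tests below are not independent of that selection, and a region's count is read against the share of all deposited regions called the same way. The files hold no read counts, but reads inferred from the smallest step of each library's values came to 7554 to 29233 within the member regions, with a median of 63 to 246 per region. Values are normalized read counts, that is reads divided by the library's size factor, which ran from 0.548 to 2.21 by the same inference. Regions were 275 to 6019 bp wide (median 712, against 730 for all deposited regions). A region's gene and its distance from the gene's start are the deposited annotation, with the distance taken from the lower coordinate of the region. Of the 76 regions, 36 overlapped the body of the assigned gene in RefSeq, 10 overlapped another coding gene and not the assigned one, and 28 overlapped no RefSeq gene. In sorted pools a region open in more of the cells and a region more open in each cell cannot be told apart. None of the 11 macrophage markers checked, Adgre1 and Csf1r among them, has a deposited region, so the labelled cell type could not be checked. Of 46 markers of other cell types 12 had regions, 17 in all, of which 7 were higher and 10 lower in HFD-RD than in RD-RD. The summed normalized count of these 17 regions was 4464 to 4764 in RD-RD, 3587 to 3687 in HFD and 3259 to 3527 in HFD-RD. The adipocyte markers had 1 region, at 309 to 369 in RD-RD, 688 to 820 in HFD and 557 to 622 in HFD-RD. The T cell markers had 1, at 232 to 265, 416 to 487 and 496 to 527 in the same order. The fibroblast and preadipocyte markers had 1, at 1198 to 1313, 522 to 680 and 608 to 722. The 3 dendritic cell regions summed to 768 to 861, 331 to 371 and 274 to 336. Summed counts of the neutrophil, B cell and endothelial markers were also highest in RD-RD. The part of other cell types in the receptor results was not tested.

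Receptor gene regions moved in both directions when mice that had eaten the high-fat diet were set against mice kept on the regular diet. HFD-RD against RD-RD sets mice that have lost weight beside mice that were never given high-fat food. In it 45 member regions (59.2%) rose, 30 (39.5%) fell and 1 missed the threshold (limma, Benjamini-Hochberg adjusted p at or below 0.05 over the 5898 regions). The background was 64.8% of all deposited regions higher and 32.4% lower (97.2% in either direction), and the median log2 change was 1.00 among members and 1.03 among all regions. HFD against RD-RD sets mice on high-fat food beside mice that were not. There 40 members (52.6%) were higher, 25 (32.9%) lower and 11 did not pass, beside 59.2% and 29% of all regions (88.2% in either direction). The median log2 changes were 0.64 and 0.75. In HFD-RD against HFD, 7 members (9.21%) were higher, 13 (17.1%) lower and 56 did not pass, beside 10.2% and 12.8% of all regions (23.1% in either direction), with median log2 changes of -0.07 and -0.05. The shares of members lie near the background in each comparison, so these counts say nothing particular of receptor genes, and the account below is of which families and genes went which way. The first 2 comparisons share their RD-RD libraries, so their values are given side by side and are not independent of each other.

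**Figure D1:**
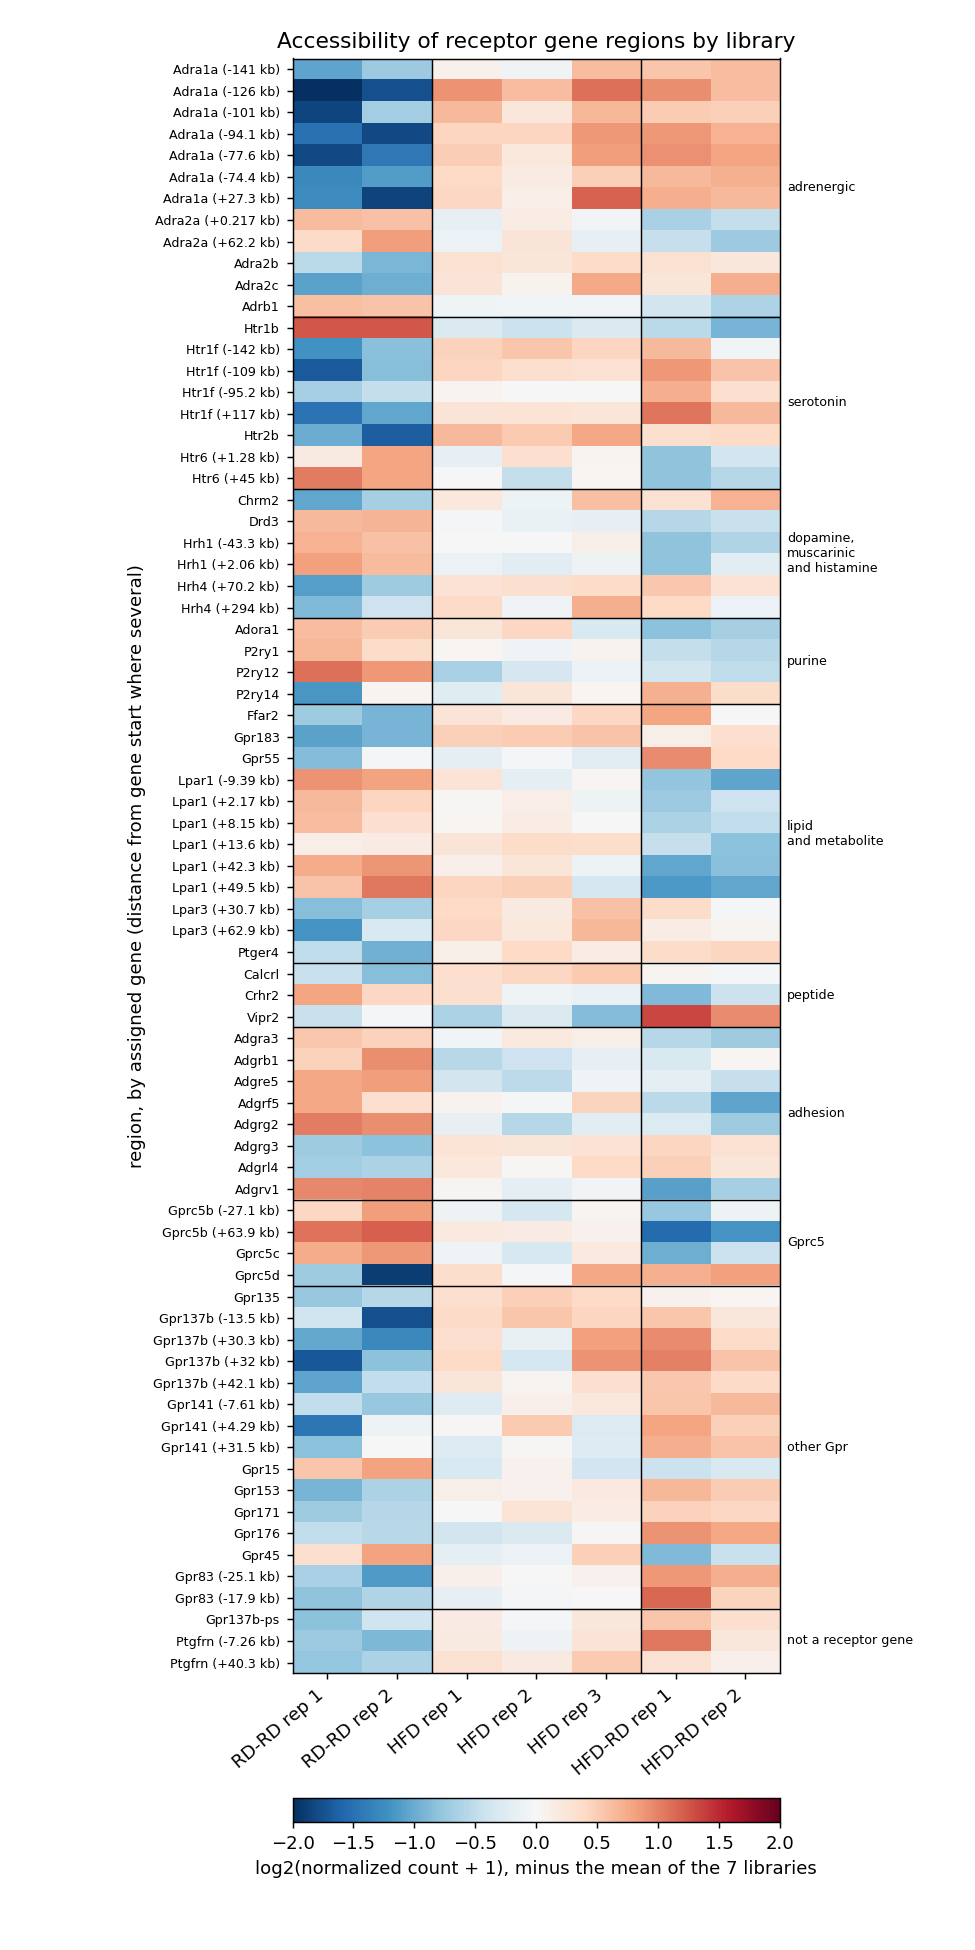
Accessibility of 75 of the 76 regions (rows, grouped by receptor family) in the 7 libraries (columns). The colour is log2(normalized count + 1) minus the mean of the 7 libraries, red above and blue below. Adra1a and Htr1f are lowest in the 2 RD-RD libraries, Htr1b is highest there, Lpar1 is lowest in the 2 HFD-RD libraries, and Vipr2 is highest in them.

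The adrenergic family held the largest increases among the members. Adra1a encodes the alpha-1A receptor for noradrenaline and adrenaline, which couples to Gq, and it had 7 regions over 169 kb of chromosome 14, from 141 kb upstream of the gene to 27.3 kb inside it. The region 126 kb upstream (chr14:66509330-66510464, GRCm38) had 16.2 and 25.9 normalized counts in the RD-RD libraries, 168, 138 and 194 in HFD, and 173 and 138 in HFD-RD. The RD-RD libraries were lowest and did not overlap those of the other groups, while HFD and HFD-RD overlapped. Its accessibility was 7.23-fold higher in HFD-RD than in RD-RD, a log2 change of 2.85 ± 0.26 (SE, limma adjusted p = 3.15e-05), and 7.72-fold higher in HFD (2.95 ± 0.24, adjusted p = 9.34e-05). These were the largest increases among the 76 regions in either comparison.

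RD-RD was lowest at the other Adra1a regions too. The most open of the 7, 74.4 kb upstream, had 238 and 268 normalized counts in the RD-RD libraries, 766, 649 and 806 in HFD and 914 and 949 in HFD-RD. Here no group overlapped another, although the step from HFD to HFD-RD did not pass (log2 difference 0.34 ± 0.19 SE, limma adjusted p = 0.194). The region inside the gene had 28.6 and 18.7 normalized counts in the RD-RD libraries, 93.9, 77.3 and 160 in HFD and 117 and 111 in HFD-RD. It is the only one of the 7 that overlaps the gene body, and RD-RD was again below both other groups. All 7 regions rose in HFD-RD against RD-RD, by 1.48 to 2.85 on the log2 scale, and all 7 rose in HFD, by 1.10 to 2.95. None of the 7 passed in HFD-RD against HFD, where the log2 differences lay between -0.09 and 0.38, and each 95% interval included 0. For the region 126 kb upstream that interval ran from -0.62 to 0.43, which does not show equal levels.

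**Figure D2:**
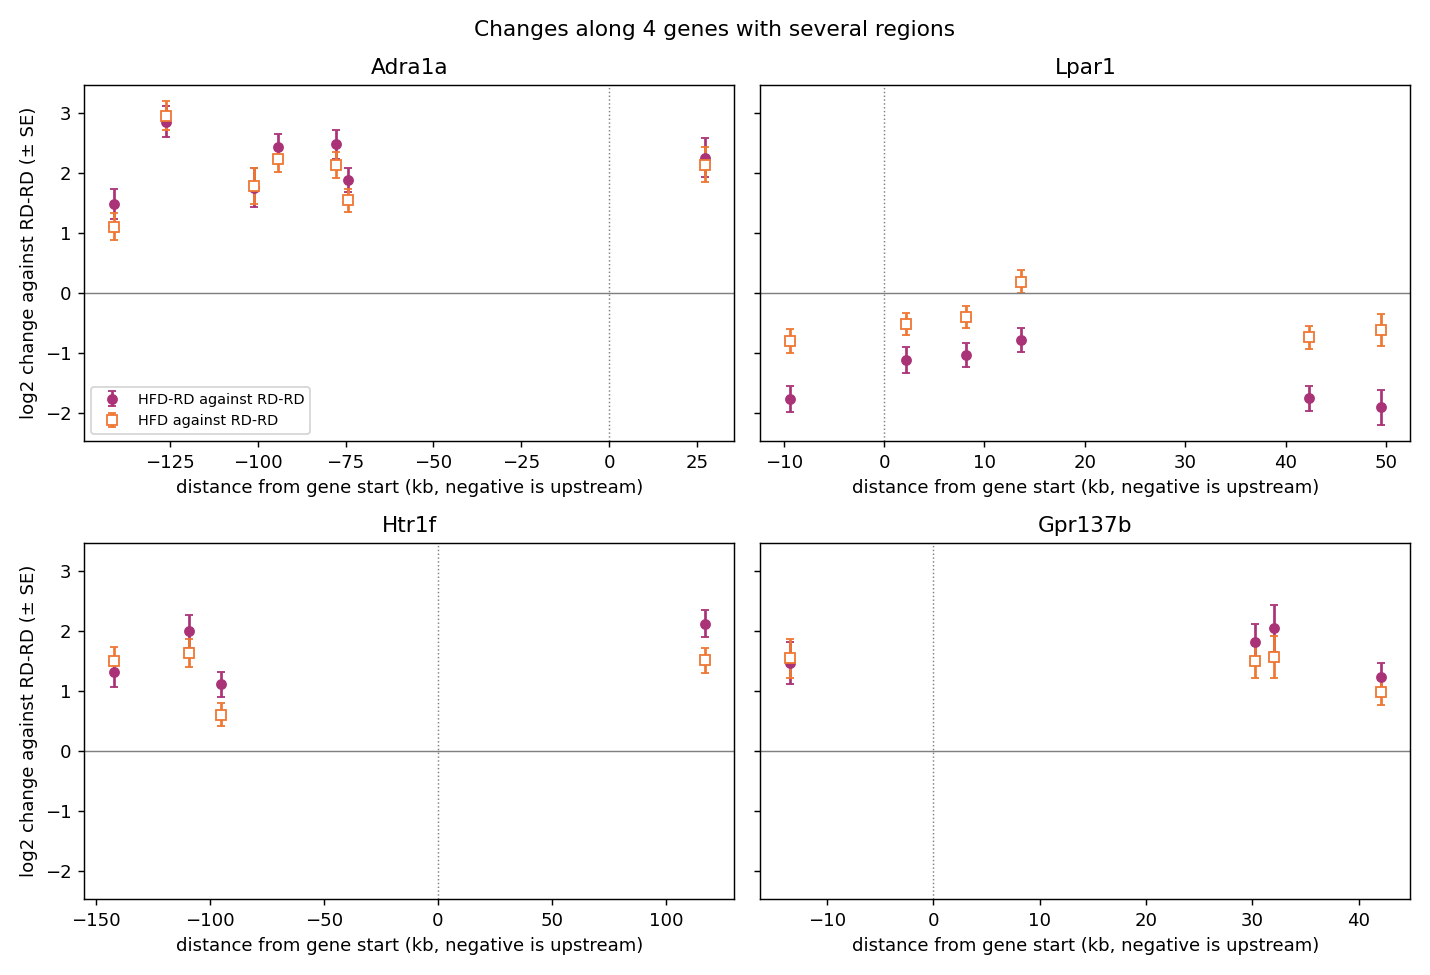
Log2 change against RD-RD (± SE from limma) by distance from the gene's start in kb, for the regions of Adra1a, Lpar1, Htr1f and Gpr137b; filled circles are HFD-RD and open squares HFD. The points of Adra1a, Htr1f and Gpr137b lie above 0 in both groups, and those of Lpar1 below 0 in HFD-RD, from -0.79 to -1.91, with HFD closer to 0.

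Other adrenergic genes divided between subtypes. Adra2b and Adra2c, which encode Gi-coupled alpha-2 receptors, were higher in both groups that had eaten the high-fat diet. The Adra2b region had 118 and 90.7 normalized counts in the RD-RD libraries, 211, 202 and 221 in HFD and 212 and 201 in HFD-RD, a log2 change of 0.99 ± 0.21 (SE) in HFD-RD and 1.02 ± 0.19 in HFD. The Adra2c region, 62.7 kb upstream, went from 36.1 and 38.9 in RD-RD to 92.6, 81.5 and 131 in HFD and 91.2 and 129 in HFD-RD (log2 changes 1.39 ± 0.24 in HFD and 1.51 ± 0.26 in HFD-RD). For both genes RD-RD lay below every other library.

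Adra2a, the third alpha-2 gene, went the other way at both of its regions. The region at its start had 267 and 259 normalized counts in the RD-RD libraries, 153, 190 and 165 in HFD, and 109 and 123 in HFD-RD. The groups did not overlap, with HFD between the others. The log2 change was -1.17 ± 0.20 in HFD-RD (SE, limma adjusted p = 0.000386) and -0.64 ± 0.19 in HFD (adjusted p = 0.00758). The region 62.2 kb downstream fell by 1.20 on the log2 scale in HFD-RD and by 0.61 in HFD, the latter losing its call without RD-RD replicate 2, HFD replicate 1 or HFD replicate 3 (adjusted p up to 0.174 over the alternatives). Adrb1 encodes the Gs-coupled beta-1 receptor, and its region 22.6 kb upstream had 87.2 and 85 normalized counts in the RD-RD libraries, 53.7, 55.1 and 55 in HFD, and 43.8 and 37 in HFD-RD. On the log2 scale the region changed by -1.08 ± 0.19 in HFD-RD and -0.65 ± 0.18 in HFD, and no library of these groups reached RD-RD. Of the 12 adrenergic regions, 9 were higher and 3 lower in each of these comparisons, and 7 of the 9 were at Adra1a. Among all deposited regions 64.8% were higher and 32.4% lower in HFD-RD, and 59.2% and 29% in HFD. None of the 12 passed in HFD-RD against HFD with limma, where 3 had an unadjusted p under 0.05. The sequence before a RefSeq start of Adra2a is shown because the region that fell covers it, as 250 bases at chr19:54045009-54045258, plus strand (GRCm38.p6). This start lies further into the gene than the start in the deposited annotation. Capitals mark the CG dinucleotides (CpG), which promoters of many genes hold in number.
Adra2a: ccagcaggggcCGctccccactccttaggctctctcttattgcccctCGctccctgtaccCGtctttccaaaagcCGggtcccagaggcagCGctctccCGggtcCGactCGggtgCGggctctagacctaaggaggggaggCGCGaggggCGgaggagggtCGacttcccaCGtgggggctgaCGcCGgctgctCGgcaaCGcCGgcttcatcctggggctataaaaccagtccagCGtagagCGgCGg

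Among serotonin receptors, the regions of Htr1f and Htr2b rose and those of Htr1b and Htr6 fell. Htr1f encodes a Gi-coupled receptor and had 4 regions over 259 kb of chromosome 16. Its region inside the gene (chr16:64989234-64989963) had 39.9 and 54.7 normalized counts in the RD-RD libraries, 135, 137 and 134 in HFD, and 239 and 178 in HFD-RD. The 3 groups did not overlap, and HFD lay between RD-RD and HFD-RD. In log2 units the change was 2.12 ± 0.23 in HFD-RD (SE, limma adjusted p = 6.12e-05) and 1.51 ± 0.21 in HFD (adjusted p = 0.000216), and the difference of 0.61 ± 0.21 between HFD-RD and HFD did not pass (adjusted p = 0.0569). The 3 upstream regions rose by 1.11 to 1.99 in HFD-RD and by 0.60 to 1.63 in HFD. The smallest of these, 0.60 at the region 95.2 kb upstream, did not pass in HFD without RD-RD replicate 1 (adjusted p = 0.0703).

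Htr2b, a Gq-coupled receptor gene, lies inside Psmd1, a proteasome subunit gene, and its region overlaps both. It had 34.9 and 21.6 normalized counts in the RD-RD libraries, 110, 101 and 120 in HFD, and 87.5 and 92.6 in HFD-RD. HFD was highest and RD-RD lowest with no overlap. The increase was 3.9-fold in HFD (log2 1.96 ± 0.22 SE, limma adjusted p = 0.000119) and 3.2-fold in HFD-RD (1.68 ± 0.24, adjusted p = 0.000179).

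Htr1b encodes another Gi-coupled receptor, and the region over its start went from 414 and 415 normalized counts in RD-RD to 143, 129 and 143 in HFD and 120 and 91.6 in HFD-RD. Both RD-RD libraries stood far above the other 5, which lay close together. The change in log2 units was -1.97 ± 0.21 in HFD-RD (SE, limma adjusted p = 5.7e-05) and -1.58 ± 0.19 in HFD (adjusted p = 0.00014), the largest decrease of a member in HFD against RD-RD. The Gs-coupled gene Htr6 fell in HFD-RD at its start (-1.08 ± 0.27) and at a region 45 kb downstream (-1.59 ± 0.24), which lies within Tmco4. In HFD the first did not pass (-0.41 ± 0.24) and the second fell by 1.05. No serotonin receptor region passed in HFD-RD against HFD with limma, and 4 of the 8 had an unadjusted p under 0.05. The 250 bases before the Htr1b start, chr9:81633833-81634082 on the minus strand, lie within the region that fell, and are printed from RefSeq on GRCm38.p6 with CpG in capitals for comparison with the CpG-richer starts of other members that fell.
Htr1b: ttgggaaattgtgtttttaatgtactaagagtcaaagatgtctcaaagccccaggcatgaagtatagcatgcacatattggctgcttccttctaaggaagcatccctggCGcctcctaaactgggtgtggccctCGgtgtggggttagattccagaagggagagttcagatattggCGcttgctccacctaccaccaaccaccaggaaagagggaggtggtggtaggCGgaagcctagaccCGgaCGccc

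Dopamine, muscarinic and histamine receptors had 6 regions, 3 higher and 3 lower in each comparison with RD-RD. Hrh1 encodes a Gq-coupled histamine receptor, and its region 2.06 kb inside the gene had 896 and 793 normalized counts in the RD-RD libraries, 471, 439 and 475 in HFD, and 290 and 437 in HFD-RD. RD-RD was highest without overlap, and HFD-RD replicate 2 lay just below the HFD libraries. The region's log2 change came to -1.24 ± 0.23 in HFD-RD and -0.87 ± 0.21 in HFD, and a second Hrh1 region 43.3 kb upstream had -1.35 ± 0.20 and -0.59 ± 0.18. Hrh4, a Gi-coupled histamine receptor gene of blood cells, rose at 2 distant downstream regions, 70.2 kb and 294 kb from its start. The log2 changes in HFD-RD were 1.32 ± 0.21 and 0.79 ± 0.29, the second losing its call without HFD-RD replicate 1 (0.54, adjusted p = 0.16) or without RD-RD replicate 1 (0.56, adjusted p = 0.14). In HFD they were 1.24 ± 0.20 and 1.00 ± 0.27, and without RD-RD replicate 1 the second fell short there too (0.76, adjusted p = 0.053). Drd3, the dopamine D3 receptor gene, had 116 and 118 normalized counts in the RD-RD libraries, 72.3, 66.6 and 65.3 in HFD and 49.2 and 53.7 in HFD-RD, with no overlap between groups (log2 change -1.17 ± 0.19 in HFD-RD and -0.77 ± 0.18 in HFD). Chrm2, a Gi-coupled muscarinic receptor gene, rose by 1.35 ± 0.27 in HFD-RD and 1.09 ± 0.24 in HFD at a region 102 kb upstream.

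Purine receptors sense adenosine and extracellular nucleotides, which dying or stressed cells release. P2ry12 encodes the Gi-coupled ADP receptor known as a marker of microglia, the macrophages of the brain. Its region had 117 and 99.4 normalized counts in the RD-RD libraries, 34.3, 42.8 and 49.9 in HFD, and 41.9 and 38 in HFD-RD. The RD-RD libraries were far above the others, which overlapped. The log2 change was -1.41 ± 0.23 in HFD-RD (SE, limma adjusted p = 0.000284) and -1.35 ± 0.21 in HFD (adjusted p = 0.000308). P2ry1, another ADP receptor gene, fell by 1.04 in HFD-RD and by 0.50 in HFD at a region 214 kb upstream, and the HFD call was lost without RD-RD replicate 1, HFD replicate 1 or HFD replicate 2 (adjusted p up to 0.151). Adora1, a Gi-coupled adenosine receptor gene, had 76 and 70.6 normalized counts in the RD-RD libraries, 58.3, 65.8 and 39.5 in HFD, and 27.4 and 30.5 in HFD-RD. It fell in HFD-RD (log2 change -1.31 ± 0.25), did not pass in HFD (-0.45 ± 0.23), and no group overlapped another.

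P2ry14, a UDP-glucose receptor gene, and Gpr171 neighbour P2ry12 on chromosome 3, all within or next to Med12l. The P2ry14 region had 23.7 and 56.2 normalized counts in the RD-RD libraries, 45.6, 64.2 and 55.9 in HFD, and 89.4 and 70.4 in HFD-RD. RD-RD and HFD overlapped, and RD-RD replicate 1 stood lowest. The region rose by 1.10 ± 0.34 in HFD-RD (limma adjusted p = 0.00888) but not without RD-RD replicate 1 (0.49, adjusted p = 0.111) or HFD-RD replicate 1 (0.93, adjusted p = 0.0653). The Gpr171 region, which overlaps P2ry14 and Med12l and not Gpr171, had 132 and 145 normalized counts in the RD-RD libraries, 215, 262 and 241 in HFD and 297 and 288 in HFD-RD. The groups did not overlap, and the log2 change was 1.07 ± 0.20 in HFD-RD and 0.78 ± 0.18 in HFD. Neighbouring receptor genes of this cluster thus lay beside regions that moved in opposite directions.

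Receptors for lipids and metabolites were split: in HFD-RD against RD-RD 6 of their 12 regions rose and 6 fell, all of the latter at Lpar1. This gene encodes a receptor for lysophosphatidic acid, a signalling lipid that fat cells help to produce through the enzyme autotaxin, and it couples to several G proteins. It had 6 regions over 59.7 kb of chromosome 4. The region over its start (chr4:58551729-58554107), the most open of all 76, had 1314 and 1122 normalized counts in the RD-RD libraries, 849, 913 and 780 in HFD, and 502 and 624 in HFD-RD. The 3 groups did not overlap, and HFD lay between the others. On the log2 scale the region changed by -1.12 ± 0.21 in HFD-RD (SE, limma adjusted p = 0.000562) and -0.52 ± 0.19 in HFD (adjusted p = 0.0241).

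Of the other Lpar1 regions, those 49.5 and 42.3 kb inside the gene and that 9.39 kb upstream had larger decreases in HFD-RD against RD-RD than the start. The region 49.5 kb inside the gene had 259 and 366 normalized counts in the RD-RD libraries, 235, 245 and 138 in HFD, and 78.4 and 84.2 in HFD-RD. HFD-RD was lowest, and HFD replicate 3 stood apart from the other HFD libraries. In log2 units the change was -1.91 ± 0.29 in HFD-RD. The region 9.39 kb upstream went from 315 and 294 normalized counts in RD-RD to 202, 147 and 173 in HFD and 96.7 and 80.5 in HFD-RD, with no overlap (log2 change -1.77 ± 0.22 in HFD-RD and -0.81 ± 0.20 in HFD). All 6 regions fell in HFD-RD against RD-RD, with log2 changes of -0.79 to -1.91, and 4 of 6 were lower in HFD. Of those 4, the region 49.5 kb inside (log2 change -0.62 in HFD) did not pass without RD-RD replicate 2 (-0.38, adjusted p = 0.28) or HFD replicate 3 (-0.36, adjusted p = 0.161), nor did it without either HFD-RD library (adjusted p = 0.0575). The region at the start did not pass without RD-RD replicate 1 (-0.41, adjusted p = 0.129), HFD replicate 1 (adjusted p = 0.0652) or HFD replicate 3 (adjusted p = 0.0687). At the region 13.6 kb inside, HFD was not distinguished from RD-RD (0.18 ± 0.19, 95% interval -0.23 to 0.59) while HFD-RD was lower than both. The 250 bases before a RefSeq start of Lpar1, chr4:58553492-58553741 on the minus strand (GRCm38.p6), lie within the region over the gene's start. This RefSeq start lies further into the gene than the start in the deposited annotation. The bases are shown with CpG in capitals as a promoter of the gene with the most regions that fell.
Lpar1: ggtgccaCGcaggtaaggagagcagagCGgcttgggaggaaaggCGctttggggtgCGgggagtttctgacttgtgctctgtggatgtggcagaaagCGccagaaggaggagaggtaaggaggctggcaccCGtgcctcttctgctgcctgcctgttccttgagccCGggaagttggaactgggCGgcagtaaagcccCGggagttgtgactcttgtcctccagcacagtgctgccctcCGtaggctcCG

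Lpar3, another lysophosphatidic acid receptor gene, went the opposite way from Lpar1. Its region 30.7 kb inside the gene had 84.7 and 96.5 normalized counts in the RD-RD libraries, 203, 174 and 230 in HFD, and 199 and 150 in HFD-RD. RD-RD was below all other libraries, and the log2 change was 0.93 ± 0.23 in HFD-RD and 1.14 ± 0.21 in HFD. Its other region, 62.9 kb inside, rose by 0.84 ± 0.28 in HFD-RD and 1.17 ± 0.25 in HFD, and its HFD-RD call was lost without RD-RD replicate 1 (0.41, adjusted p = 0.138) or HFD-RD replicate 1 (0.80, adjusted p = 0.0542).

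Other metabolite receptors of immune cells were mostly higher. Gpr183 encodes a receptor for oxysterols that guides immune cells, and its assigned region, which overlaps Ubac2, had 33.6 and 37.4 normalized counts in the RD-RD libraries, 100, 103 and 107 in HFD, and 78.4 and 90.7 in HFD-RD. HFD was highest and no group overlapped another, with log2 changes of 1.51 ± 0.18 in HFD (limma adjusted p = 0.000129) and 1.23 ± 0.20 in HFD-RD (adjusted p = 0.000285). Ffar2 encodes a receptor for short-chain fatty acids, and its region had 33.6 and 28.8 normalized counts in the RD-RD libraries, 66.8, 62.5 and 73.9 in HFD, and 96.7 and 55.5 in HFD-RD. The HFD-RD libraries lay on either side of HFD, and both groups were above RD-RD (1.21 ± 0.26 in HFD-RD, 1.09 ± 0.24 in HFD). Ptger4, the gene of a Gs-coupled receptor for E-type prostaglandins, rose by 1.13 ± 0.22 in HFD-RD and 0.95 ± 0.20 in HFD. Gpr55, which encodes a receptor for lysophosphatidylinositol, had 97.2 and 173 normalized counts in the RD-RD libraries, 155, 175 and 152 in HFD, and 343 and 235 in HFD-RD. RD-RD and HFD overlapped and HFD-RD was above both, with a log2 change of 1.13 ± 0.28 in HFD-RD and 0.31 ± 0.26, not past the test, in HFD.

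Among peptide hormone receptors, Vipr2 was high after weight loss and in neither other group. It encodes a Gs-coupled receptor for vasoactive intestinal peptide, a neuropeptide known to restrain inflammatory macrophages. Its region, 60.2 kb inside the gene (chr12:116137970-116139543), had 118 and 158 normalized counts in the RD-RD libraries, 104, 132 and 88.5 in HFD, and 409 and 313 in HFD-RD. RD-RD and HFD overlapped and both HFD-RD libraries stood far above them. It was 2.6-fold higher in HFD-RD than in RD-RD (log2 1.38 ± 0.25 SE, limma adjusted p = 0.000497), did not pass in HFD against RD-RD (-0.36 ± 0.23, adjusted p = 0.159), and was 3.33-fold higher in HFD-RD than in HFD (1.74 ± 0.23, adjusted p = 0.00371). Calcrl, whose product forms receptors for adrenomedullin and calcitonin gene-related peptide, had 111 and 83.5 normalized counts in the RD-RD libraries, 192, 202 and 219 in HFD, and 157 and 149 in HFD-RD. HFD was highest without overlap, and the log2 change was 1.08 ± 0.19 in HFD. In HFD-RD it was 0.66 ± 0.21, and this call was lost without RD-RD replicate 2 (0.46, adjusted p = 0.0752) and with equal totals per library (0.47, adjusted p = 0.0539). Crhr2, a urocortin receptor gene, fell by 1.25 ± 0.25 in HFD-RD and by 0.56 ± 0.23 in HFD, the latter not without RD-RD replicate 1, HFD replicate 2 or HFD replicate 3 (adjusted p up to 0.221).

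Adhesion receptors carry long outer domains that bind other cells or matrix. Their regions were lower at 6 of 8 in HFD-RD and at 5 of 8 in HFD. Among all deposited regions 32.4% and 29% were lower, and the difference was not tested. Adgrl2, whose name also falls in this family, was set aside with its 10 regions. Adgrv1, a very large receptor known from hearing, had 644 and 652 normalized counts in the RD-RD libraries, 341, 286 and 316 in HFD, and 155 and 206 in HFD-RD. The groups formed 3 separate steps (log2 change -1.85 ± 0.21 in HFD-RD, limma adjusted p = 7.75e-05, and -1.05 ± 0.20 in HFD). Adgrg2, on the X chromosome, had 199 and 186 normalized counts in the RD-RD libraries, 86.3, 65 and 83.4 in HFD and 80.2 and 59.2 in HFD-RD. RD-RD alone was high, with log2 changes of -1.47 ± 0.23 and -1.30 ± 0.21 in HFD-RD and HFD. Adgre5, which encodes CD97 of leukocytes, had -1.12 in each of both comparisons (SE 0.22 and 0.20), at a region 64.4 kb upstream.

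Adgrb1 encodes a receptor for phosphatidylserine on dying cells. Its region had 74.7 and 104 normalized counts in the RD-RD libraries, 36.6, 40.3 and 48.1 in HFD, and 43.8 and 55.5 in HFD-RD. HFD and HFD-RD overlapped below RD-RD, with a log2 change of -1.07 ± 0.22 in HFD and -0.82 ± 0.24 in HFD-RD, the latter just missing the threshold without RD-RD replicate 2 (-0.59, adjusted p = 0.0516). Adgrf5, known for its part in lung surfactant control, fell in HFD-RD (-1.36 ± 0.26) and did not pass in HFD (-0.40 ± 0.24). The 2 adhesion receptor genes with higher regions were Adgrg3, a gene of neutrophils whose assigned region lies within the neighbouring Adgrg1, at 1.12 ± 0.19 in HFD-RD and 1.02 ± 0.17 in HFD, and Adgrl4, a gene of blood vessel cells, at 1.02 ± 0.21 and 0.87 ± 0.19. Markers of endothelial cells had 6 regions, 3 higher and 3 lower in HFD-RD against RD-RD, with a summed normalized count of 1020 to 1074 in RD-RD, 801 to 826 in HFD and 689 to 771 in HFD-RD.

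The region over the start of Adgra3, an orphan adhesion receptor gene, had 353 and 337 normalized counts in the RD-RD libraries, 234, 280 and 265 in HFD, and 164 and 149 in HFD-RD. The groups did not overlap. The change in log2 units was -1.13 ± 0.20 in HFD-RD (SE, limma adjusted p = 0.000406), and the change of -0.41 ± 0.18 in HFD lay at the edge of the threshold (adjusted p = 0.0498) and was lost without any single RD-RD or HFD library (adjusted p up to 0.18). The 250 bases before this start, chr5:50058997-50059246 on the minus strand (RefSeq, GRCm38.p6), are shown with CpG in capitals. They carry the most CpG of the 5 promoter windows examined, 1 for each member region that wholly covers a window of its gene.
Adgra3: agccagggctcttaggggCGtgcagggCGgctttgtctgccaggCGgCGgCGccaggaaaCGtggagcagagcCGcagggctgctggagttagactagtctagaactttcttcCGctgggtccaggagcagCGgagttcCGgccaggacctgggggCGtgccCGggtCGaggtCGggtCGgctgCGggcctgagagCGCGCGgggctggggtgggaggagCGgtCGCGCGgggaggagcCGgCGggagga

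Gprc5 genes encode orphan receptors first known from their induction by retinoic acid. The region assigned to Gprc5b (chr7:118931295-118932187) lies 63.9 kb from its start, within the neighbouring gene Iqck, and had 252 and 272 normalized counts in the RD-RD libraries, 136, 132 and 125 in HFD, and 40.1 and 51.8 in HFD-RD. The groups formed 3 separate steps with HFD in the middle. The log2 change of -2.49 ± 0.21 in HFD-RD (SE, limma adjusted p = 2.78e-05) was the largest decrease of any member against RD-RD, beside -0.99 ± 0.19 in HFD (adjusted p = 0.00075). A second Gprc5b region 27.1 kb upstream fell by 1.06 in HFD-RD and by 0.76 in HFD, the latter not without RD-RD replicate 2 (-0.55, adjusted p = 0.101). The Gprc5c region, 7.17 kb upstream, had 176 and 193 normalized counts in the RD-RD libraries, 98.4, 83.9 and 120 in HFD, and 52.9 and 77.8 in HFD-RD, with no overlap (log2 change -1.51 ± 0.25 in HFD-RD and -0.88 ± 0.23 in HFD). Gprc5d, a gene of plasma cells, went up at a region within its neighbour Hebp1, from 37.4 and 15.8 in RD-RD to 79, 60.1 and 106 in HFD and 102 and 110 in HFD-RD. The region's log2 change came to 2.07 ± 0.36 in HFD-RD and 1.66 ± 0.33 in HFD.

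The remaining Gpr genes, mostly orphan receptors, were higher at 13 of 16 regions in HFD-RD and at 11 of 16 in HFD. Among all deposited regions 64.8% and 59.2% were higher, and the difference was not tested. Of the 16 regions, 4 were at Gpr137b, 3 at Gpr141 and 2 at Gpr83, and regions of 1 gene are not independent. Gpr137b encodes a protein of the lysosomal membrane, and all 4 of its regions over 56.2 kb of chromosome 13 rose, by 1.23 to 2.04 in HFD-RD and by 0.98 to 1.57 in HFD. The most open of them had 113 and 168 normalized counts in the RD-RD libraries, 280, 246 and 299 in HFD, and 343 and 310 in HFD-RD, with no overlap. The pseudogene Gpr137b-ps, whose assigned region lies within Ero1b, rose by 1.04 ± 0.22 in HFD-RD and by 0.72 ± 0.20 in HFD, the latter not without RD-RD replicate 1 (adjusted p = 0.0607). Its sequence resembles that of Gpr137b, and how reads that match both copies were assigned is not given in the sources used here.

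Gpr83, a receptor gene known from the brain and from regulatory T cells, had 2 regions that rose at each step. The region 25.1 kb upstream, which lies within Mre11a, had 184 and 132 normalized counts in the RD-RD libraries, 312, 289 and 309 in HFD, and 531 and 482 in HFD-RD. No group overlapped another, with log2 changes of 1.69 ± 0.22 in HFD-RD (limma adjusted p = 0.000115) and 0.95 ± 0.20 in HFD (adjusted p = 0.00122). The region 17.9 kb upstream rose by 1.50 ± 0.25 in HFD-RD and by 0.64 ± 0.22 in HFD, the latter not without RD-RD replicate 1 (0.54, adjusted p = 0.102). Gpr176, an orphan receptor gene known from the circadian clock of the brain, had 95.9 and 92.2 normalized counts in the RD-RD libraries, 105, 111 and 137 in HFD, and 252 and 231 in HFD-RD. HFD-RD stood apart from the other 5 libraries, with a log2 change of 1.35 ± 0.21 in HFD-RD and 0.31 ± 0.19, not past the test, in HFD.

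Gpr141, an orphan receptor gene of myeloid cells, rose at all 3 of its regions in HFD-RD, by 1.06 to 1.40. In HFD the region 31.5 kb inside did not pass (0.25 ± 0.24), and the other 2 rose by 0.65 and 0.86. The region 4.29 kb inside, with 11.2 and 30.2 normalized counts in the RD-RD libraries, rested on RD-RD replicate 1: without it the change was 0.73 in HFD-RD (adjusted p = 0.0534) and 0.19 in HFD (adjusted p = 0.573). In HFD that region also failed without either HFD-RD library, HFD replicate 1 or HFD replicate 2 (0.65 to 0.90), and the region 7.61 kb upstream failed without RD-RD replicate 2 (0.51, adjusted p = 0.0754). Gpr153 and Gpr135, whose assigned regions lie within Acot7 and Daam1, rose by 1.37 ± 0.20 and 0.72 ± 0.19 in HFD-RD and by 0.92 ± 0.18 and 1.06 ± 0.18 in HFD. Gpr15, which guides T cells to the gut, had 239 and 284 normalized counts in RD-RD against 120 and 132 in HFD-RD and 131, 172 and 125 in HFD (-1.04 ± 0.22 and -0.88 ± 0.20). Gpr45 fell over its start in HFD-RD (-1.23 ± 0.28) and did not pass in HFD (-0.50 ± 0.25). Both Ptgfrn regions rose, by 0.90 and 1.46 in HFD-RD and by 1.03 and 0.93 in HFD.

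**Figure D3:**
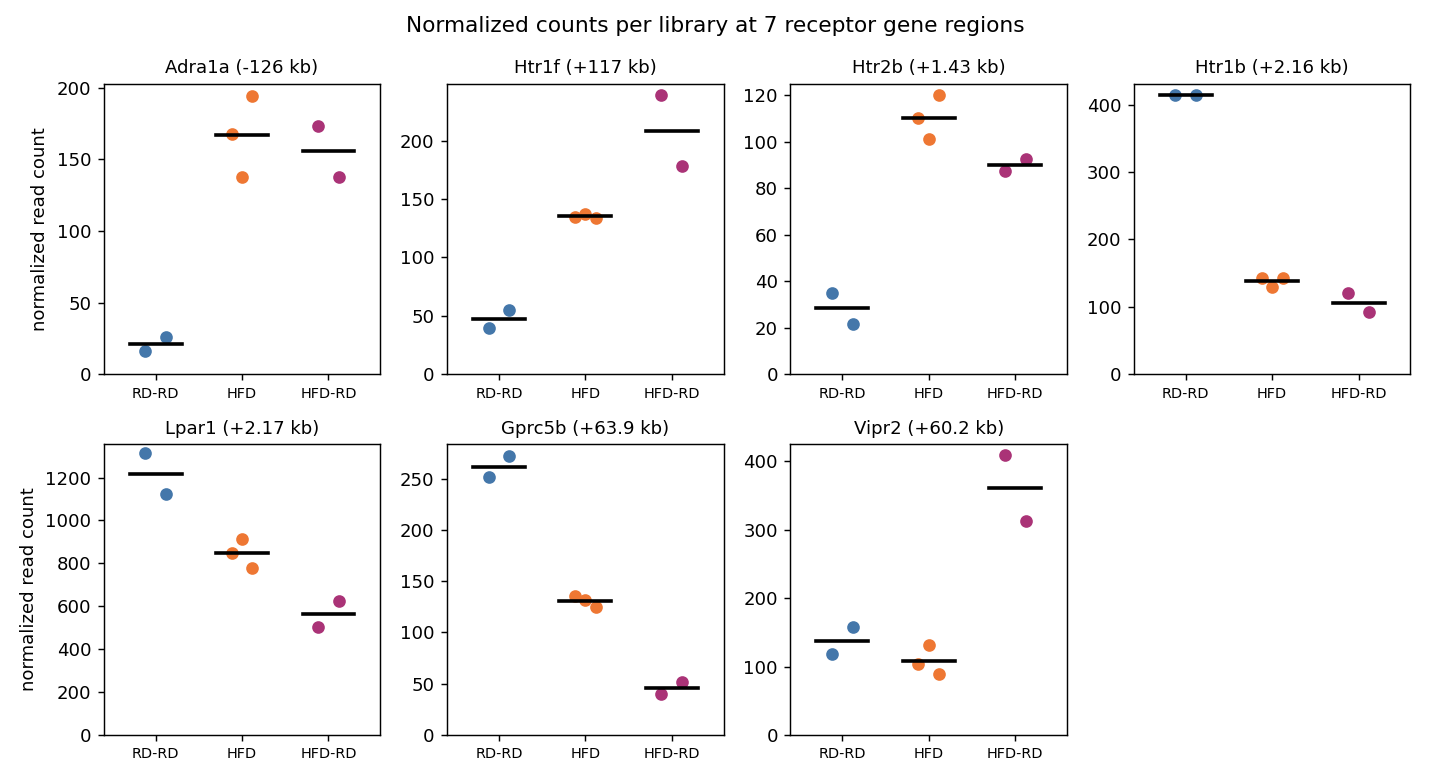
Normalized read counts per library (points) and group means (bars) at 7 regions, named by assigned gene and distance from its start, on axes that start at 0. RD-RD stands apart at Adra1a, Htr1f, Htr2b and Htr1b, Lpar1 and Gprc5b step down from RD-RD through HFD to HFD-RD, and HFD-RD is high at Vipr2.

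HFD-RD against HFD sets mice that have lost weight, studied after 20 weeks, beside mice still on high-fat food, studied after 11 weeks. Diet and time on study cannot be told apart in it. The 7 higher regions included those of Vipr2, Gpr176, Gpr55, Gpr141 and Gpr83, and the 13 lower ones were those of Lpar1 (all 6 regions), Gprc5b, Adgrf5, Adgrv1, Adgra3, Adora1, Hrh1 and Crhr2. The largest increase was that of Vipr2, given above, and Gpr176 had a log2 difference of 1.04 ± 0.19 (limma adjusted p = 0.00784). The Gpr83 regions differed by 0.86 ± 0.22 and 0.74 ± 0.20, Gpr55 by 0.82 ± 0.26 and Gpr141, 31.5 kb inside, by 0.81 ± 0.24. The largest decrease was at Gprc5b, -1.50 ± 0.19 (adjusted p = 0.00371), a ratio of 0.353. The Lpar1 regions had differences of -0.60 to -1.28, the largest at 49.5 kb inside (-1.28 ± 0.27, adjusted p = 0.0102). Adgrf5 had -0.96 ± 0.24, Adora1 -0.86 ± 0.23, Adgrv1 -0.80 ± 0.20, Hrh1 upstream -0.75 ± 0.18, Adgra3 -0.72 ± 0.18 and Crhr2 -0.69 ± 0.23. Among all 76 regions 33 had an unadjusted p under 0.05.

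These 20 calls rested on few libraries. Without HFD-RD replicate 1, 1 region stayed higher (Vipr2) and 2 lower (Gprc5b and the Lpar1 region 13.6 kb inside), and these 3 were the calls that held in every alternative tried. The other 17 were lost at least without that library, with log2 differences there such as 0.98 for Gpr176 (adjusted p = 0.0591), 0.67 and 0.51 for the Gpr83 regions (0.139 and 0.192) and -1.23 for Lpar1 at 49.5 kb (0.0805). Where leaving out a library leaves 1 in its group, that library is assumed to vary like the other groups. Without HFD replicate 1 there were 3 higher and 4 lower regions, without HFD replicate 2 there were 4 and 9, and without HFD replicate 3 there were 4 and 7. None of these 20 log2 differences changed sign. The split also moved with the scaling: 35% of the calls were higher as reported, 13.8% with equal totals per library (4 higher, 25 lower) and 22.2% with equal totals after the region with the most reads was set aside (6 higher, 21 lower). Under these scalings the median of all regions shifted by -0.209 and -0.113 for HFD-RD against HFD, and by -0.192 and -0.236 for HFD-RD against RD-RD.

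**Figure D4:**
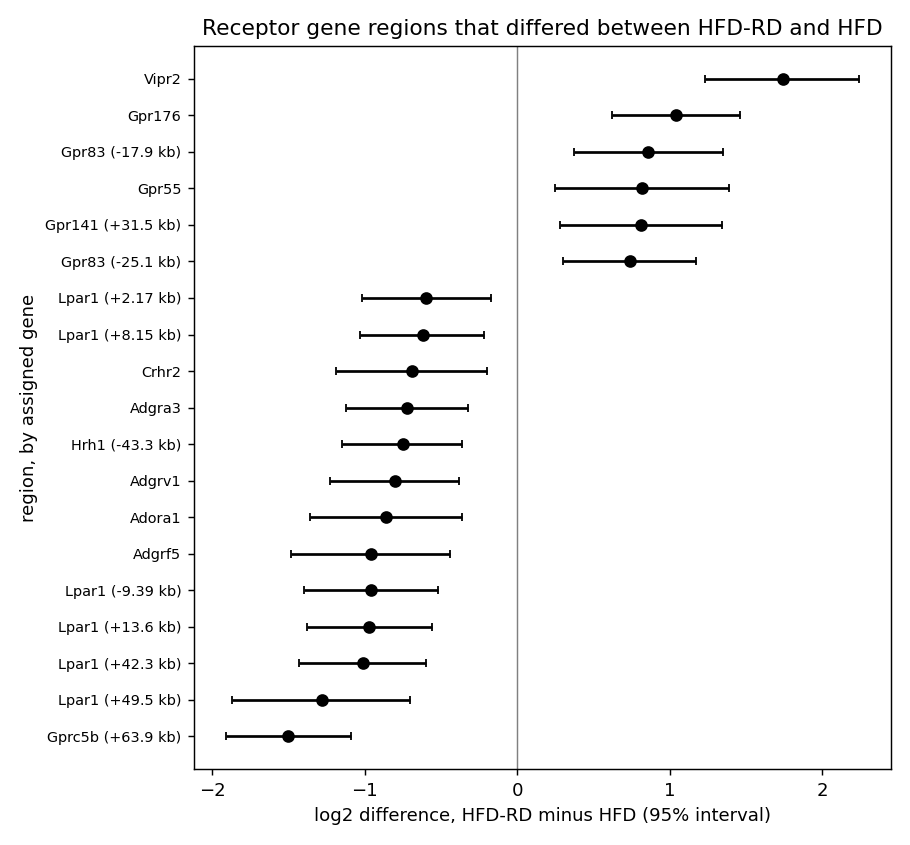
Log2 difference between HFD-RD and HFD, positive where HFD-RD is higher, for 19 of the 20 regions that passed; bars are 95% intervals from limma, not adjusted for the number of regions. Vipr2 lies farthest to the right at 1.74 and Gprc5b farthest to the left at -1.50, and all 6 Lpar1 regions lie left of 0.

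Grouped by the G protein that a receptor mainly uses, Gq-coupled genes (4 genes, 11 regions, 7 of them at Adra1a) had 8 higher and 3 lower regions in both comparisons with RD-RD. Gi-coupled genes (13 genes, 18 regions) had 12 higher and 6 lower in HFD-RD, and 11 higher, 5 lower and 2 not past the test in HFD. Gs-coupled genes (6 genes, 7 regions) had 3 higher and 4 lower in HFD-RD, with a median log2 change of -1.08. In HFD they had 2 higher, 3 lower and 2 not past the test. Among all deposited regions 64.8% were higher and 32.4% lower in HFD-RD, and 59.2% and 29% in HFD. Differences between couplings, or from these shares, were not tested. Genes of several couplings (2 genes, 8 regions) had 2 higher and 6 lower regions in HFD-RD. Genes with no coupling listed (23 genes, 31 regions) had 20 higher and 10 lower there. The regions of a gene are not independent of each other. In HFD-RD against RD-RD, the 13 genes with several regions moved 1 way at all of them, 8 up and 5 down. Among all 1132 genes with several deposited regions 83% did so, and 12% had regions in both directions. The 13 leave out Adgrl2, whose 10 regions the rule set aside, while the 1132 genes were not filtered in this way. The shares therefore cannot show a trait of receptor genes. In HFD against RD-RD 7 of the 13 were higher and 3 lower throughout, and the other 3 had a region that did not pass, while among all 1132 genes 70% moved 1 way and 9.63% had regions in both directions.

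By place, all 5 members annotated over a gene start (Adgra3, Gpr45, Htr1b, Htr6 and Lpar1) were lower in HFD-RD than in RD-RD, beside 90.1% of all 314 such regions. In HFD 3 of the 5 were lower, beside 75.8%. Outside genes and over 100 kb from the start, 7 of 8 members were higher in HFD-RD, beside 50.4% of all 700 such regions, among them 3 regions of Adra1a and 2 of Htr1f. Within genes 17 of 30 members (56.7%) were higher and 12 (40%) lower in HFD-RD, beside 71.7% and 25.6% of all 2087 such regions, and the difference was not tested.

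The promoters shown above ranged from CpG-rich to average. Adgra3 had a GC content of 71.6% with 25 CpG in 250 bases, Adra2a 67.6% with 22, Lpar1 62% with 11 and Htr1b 52.4% with 6. The medians over all 32851 mouse promoter windows of RefSeq were 52.4% and 6. Accessibility fell at all 4 in HFD-RD against RD-RD, as it did at 90.1% of all deposited regions over a gene start. The 4 were also chosen with the values known, so their fall cannot bear on CpG content. Motif letters were searched on both strands of these windows and of Htr6. They were TGANTCA (AP-1), GAGGAAG (PU.1), TGACGTC (the cyclic AMP response element), TCACGTG (a longer form of the E-box) and TGTGGTT (RUNX). None was found, while 6.75%, 10.6%, 2.78%, 3.13% and 4.4% of all promoter windows hold them. This says only that these letters are not in these windows. The shorter E-box core CACGTG was not searched for, and the Adra2a window printed above holds it.

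Genes that act downstream of the receptors were read in the same way. Of 105 genes of G protein subunits, adenylyl cyclases, phosphodiesterases, phospholipase C beta, protein kinase A and its targets, receptor kinases, arrestins and regulators of G protein signalling, 29 had deposited regions, 52 in all. In HFD-RD against RD-RD 45 (86.5%) were higher and 7 (13.5%) lower, with a median log2 change of 1.13, beside 64.8% and 32.4% of all regions and a median of 1.03. In HFD against RD-RD 41 (78.8%) were higher and 7 (13.5%) lower, beside 59.2% and 29% of all regions. In HFD-RD against HFD 5 (9.62%) were higher and 1 (1.92%) lower, beside 10.2% and 12.8%. Several of the 52 regions belong to the same gene and are not independent, and the differences from all regions were not tested.

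Pde4d, which encodes a phosphodiesterase that breaks down cyclic AMP, had 7 regions, all higher in HFD-RD by 0.82 to 1.40. The largest of these changes was at a region with 41.1 and 49 normalized counts in the RD-RD libraries, 118, 97.1 and 127 in HFD and 129 and 111 in HFD-RD, where RD-RD lay apart. Gngt2, a G protein gamma subunit gene, rose by 1.88 ± 0.33 in HFD-RD and 1.44 ± 0.31 in HFD, and Gna12, an alpha subunit gene, by 1.39 ± 0.25 and 1.50 ± 0.23. Grk5, a kinase that turns off active receptors, rose by 1.38 ± 0.25 in HFD-RD and 0.63 ± 0.23 in HFD. Rgs2, which speeds the shut-off of Gq, rose by 1.42 ± 0.45 in HFD-RD at a region 82.6 kb downstream of its start. In HFD it did not pass (0.85 ± 0.41, limma adjusted p = 0.067). That region had 14.9 and 49 normalized counts in the RD-RD libraries, 46.1, 68.3 and 39.5 in HFD, and 91.2 and 61.1 in HFD-RD. HFD overlapped both other groups, and RD-RD replicate 1 stood lowest. Plcb4, a phospholipase C beta gene driven by Gq, and the cyclase gene Adcy3 rose in HFD-RD by 1.15 ± 0.23 and 0.80 ± 0.24. The exception among the genes named was Pkia, an inhibitor of protein kinase A, whose start had 310 and 255 normalized counts in the RD-RD libraries, 86.3, 73.2 and 80.8 in HFD, and 65.7 and 85.2 in HFD-RD. RD-RD stood far above the rest, and the log2 change was -1.90 ± 0.22 in HFD-RD and -1.80 ± 0.20 in HFD.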

How the data were processed

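ATAC-seq was read from 7 deposited tables of regions, each a part of a Venn diagram, for 7 libraries in 3 diet groups. The signal analysed is the normalized count deposited by the authors, the reads in a region divided by 1 size factor per library, as inferred from the values, which are whole multiples of 1 step per library (tolerance 1e-06). The deposited tables also hold the authors' log2 fold change with its error, their test statistic (a score), and a p-value from the authors before and after adjustment, for 1 comparison per table. These were used only to tell the tables apart. The build GRCm38 and the tools DESeq2, MACS2 2.0.10, deepTools and Picard are named, with no roles, in the submitters' processing notes. The aligner is not given in the sources used here. Every deposited region carries an adjusted p of 0.05 or less by the authors, and other regions were not analysed here.

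All 7 libraries entered 1 two-sided fit of limma (version 3.58.1, R 4.3.3), after a log2 transform of the normalized count with 1 added. P-values of each of the 3 comparisons were adjusted over all 5898 regions by Benjamini-Hochberg, and 0.05 was the threshold. Changes on this scale understate those of regions with low counts. No region (0) fell under the minimum mean of 10 normalized counts. The fit had 4 residual and 7.2 prior degrees of freedom. Coordinates count from 1 on GRCm38. The fit was tested on simulated data. Summaries used pandas 2.3.3 and numpy 2.4.6, and figures matplotlib 3.10.9.

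The members, the family and partner lists and the markers were chosen with earlier results of these data known. The rule for named genes took the 8 regions that rose most and the 8 that fell most in each comparison, with 1 region per gene, genes with 3 or more regions, receptors known from macrophages or fat, and 1 region per partner list. Other members are given so that they are accounted for, except for 1 region that is counted with the others and not reported here. Promoters are shown for 4 of the 6 genes whose promoter window a member region touched, a choice made after the values were seen. Gpr45 was left out because its window is covered only in part. Htr6 was left out because its window is that of an alternative start, away from the start in the deposited annotation. The windows shown for Adra2a and Lpar1 also belong to such alternative starts. Region sequences were not used here, since no genome was given. Replicate numbers were checked for pairing and do not pair the libraries. Alternatives were another pseudocount, other minimums, equal totals per library, the robust option, each library left out and a replicate block.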

Additional observations from a re-analysis of the deposited data

How the results depend on the processing

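With 2 or 3 libraries a group and an inferred 63 to 246 reads in the median region, precision is limited. No member that passed changed sign in any alternative, and the sign of the others was not compared. Of the calls reported, 69 of 75 in HFD-RD against RD-RD, 52 of 65 in HFD against RD-RD and 3 of 20 in HFD-RD against HFD held in every alternative that gave a value. Leaving out each library in turn gave 71 to 75 calls in HFD-RD against RD-RD (41 to 45 higher, 29 to 30 lower, 55 to 57 of the named regions) and 58 to 64 in HFD against RD-RD (35 to 42 higher, 21 to 24 lower, 42 to 49 named). In HFD-RD against HFD it gave 3 to 24 calls (1 to 8 higher, 2 to 16 lower, 3 to 22 named), against 20 as reported (7 higher, 13 lower). Equal totals per library gave 4 higher and 25 lower there, and equal totals without the region with the most reads, added after the data were seen, 21 lower. The cause was not tested.

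A pseudocount of 10, no minimum, a minimum mean of 50 and the robust option kept each count of calls within 1.5 times that reported. With the minimum of 50, 3 members had no value. The replicate numbers do not pair the libraries: deviations from the group means correlated at -0.0716 to 0.0628 across regions. With the replicate block 8 of 20 calls were made in HFD-RD against HFD (2 higher and 6 lower, 8 named), 60 in HFD against RD-RD and 75 in HFD-RD against RD-RD. A count test on reads recovered from the normalized counts was planned and not run, since those reads are inferred and a second check of the values did not accept them as whole reads. Regions of 1 gene are not independent, and each comparison shares a group with the others.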
